A study of Mus musculus with 18 samples.

Results

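Interscapular brown adipose tissue (iBAT) was compared with epididymal white adipose tissue (eWAT) from the same 6 mice. The comparison took every iBAT library and every eWAT library of the series, 6 of each and 12 of 18 libraries in all, and paired them by mouse. The samples were chosen by tissue label alone and not by any measured value. Each of the 3 wild type (wt) and 3 knockout (ko) mice gave 1 library per tissue, and the mouse identifiers in the labels tie the tissues together. All mice carried the strain label C57BL/6N-{delta}Gm15551, were 12 weeks old and were fed a chow diet. The wt mice were litter mates of the ko mice, in which CRISPR/Cas9 had removed exon 1 of Gm15551, a long noncoding RNA gene lying antisense within Camk2d. The ko mice descend from 1 deletion line that had been crossed back to wild type animals, and the labels do not say which mice shared a litter. Polyadenylated RNA was sequenced from whole frozen tissue, so each library holds adipocytes together with vessels, nerves, immune cells and, in eWAT, the outer mesothelial layer.

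Brown adipocytes hold many small lipid droplets and a dense set of mitochondria. Cold and noradrenaline activate beta-adrenergic receptors on these cells, cAMP rises, lipolysis frees fatty acids, and the uncoupling protein Ucp1 lets protons return across the inner mitochondrial membrane so that respiration yields heat in place of ATP. White adipocytes of the epididymal depot store triglyceride in a single large droplet and secrete hormones such as leptin. This depot lies inside the abdominal cavity next to the epididymis and the testis, and a mesothelium covers it.

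The deposited values were estimated read counts per gene. Library totals ran from 14997900 (eWAT ko 3) to 34389600 (eWAT ko 2). Levels are given as CPM, for which counts are divided by the library total multiplied by its TMM factor. With these factors most genes keep an average ratio near 1. The CPM values therefore add up to different totals in different libraries and are not shares of a library's counts. Differences are log2 fold changes of iBAT over eWAT with their standard error (SE), from edgeR's quasi-likelihood test with the mouse as a block (n = 6 mice), and a gene was called at a Benjamini-Hochberg adjusted p below 0.05 over all 17508 genes tested. Nothing beyond the mouse identifiers says how the tissues were handled, so the p-values cover the spread between these mice only. Libraries of the same tissue and genotype differed by a chi-square of 18.1 to 56.5 per gene, where sampling noise alone would give about 1, apart from the pairs of eWAT ko 3 with eWAT ko 1 (240.2) and eWAT ko 2 (296.7). The library eWAT ko 3 had the highest summed levels of the epididymal and testis lists, and the main values that rest on it are given with and without that mouse.

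The targeted gene was read first as a check of the labels. Gm15551 (chr3:126667329-126669044, GRCm38, minus strand) was at 3.89, 2.50 and 2.38 CPM in the iBAT wt libraries and at 0 in all 3 iBAT ko libraries. In eWAT it was at 7.41, 8.70 and 10.7 CPM in wt and at 0, 0.0880 and 0 in ko. Every wt library was above every ko library of its tissue, which matches the genotype labels. Over all 6 mice Gm15551 was lower in iBAT (log2 fold change -1.66 ± 0.36, adjusted p = 0.00809), a difference to which the 3 ko mice could add almost nothing. Without mouse wt 3 it was no longer called (log2 fold change -1.43, adjusted p = 0.0554). Camk2d (chr3:126596302-126846326, plus strand), a calcium and calmodulin dependent kinase gene that spans it, was also lower in iBAT at a mean of 39.4 against 73.4 CPM (-0.89 ± 0.11, adjusted p = 2.01e-04). The deletion coordinates stated in the study's methods lie on the same chromosome but outside the annotated position of Gm15551 given here, so the deleted part was not placed on this annotation. The library kit does not mark strand, so reads from the region where both genes overlap cannot be told apart.

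Brown and epididymal fat differed across much of the transcriptome. In all, 4743 genes were higher in iBAT, which is 27.1% of the genes tested, and 5445 were lower, which is 31.1%. With an added demand of at least 2-fold, 2262 genes (12.9%) were higher and 3362 (19.2%) were lower. For 3545 genes (20.2%) all iBAT libraries lay above all eWAT libraries, and for 3391 (19.4%) the order was the other way round. The median difference was 0.96 on the log2 scale among genes higher in iBAT and -1.29 among those lower, and at least 8-fold differences were found in 410 and 694 genes. Protein-coding genes made up 14445 of the tested genes, with 4231 higher and 4811 lower. Of 1759 long noncoding genes, 317 were higher and 406 were lower. The counts given for each gene group are to be read beside these shares.

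**Figure D1:**
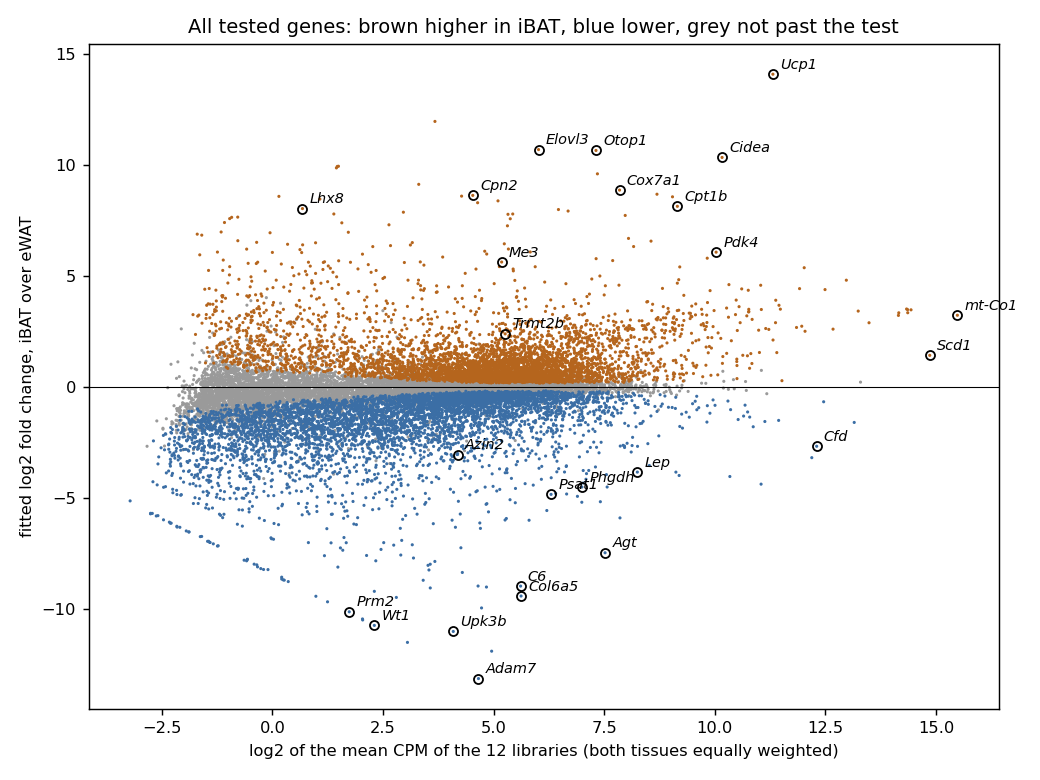
Log2 fold change of iBAT over eWAT (y axis) against the log2 mean CPM over the 12 libraries (x axis) for the 17508 genes tested; brown points were called higher in iBAT, blue points lower and grey points neither. Fold changes run from -13.12 to 14.08 on the log2 scale, and the slanted row of blue points at the lower left is made of genes without a count in iBAT, whose fitted values depend on the prior count.

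The scaling matters for small differences. The iBAT libraries had TMM factors from 0.662 up to 0.807, the eWAT libraries from 1.27 up to 1.51. When libraries were scaled by their totals alone, the median of all genes moved by -0.88 on the log2 scale, from -0.12 to -0.998, and calls became 1663 higher and 12575 lower (11.7% of calls higher, against 46.6% with TMM). A gene with a log2 difference between 0 and about 0.88 therefore changes sign with the scaling, and differences are given here relative to the TMM reference. Without mouse ko 3, 5109 genes were higher and 5809 lower, 9789 of the 10188 calls were kept, 398 were lost and 0 turned direction.

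The marker genes came with the comparison, each with its direction, so their split by tissue is a description and no separate test. Ucp1 (chr8:83290352-83298452, plus strand) was between 3131 and 7446 CPM in iBAT (median 5067) and between 0 and 1.24 CPM in eWAT (median 0.0886). The highest eWAT value was that of ko 3, and the groups did not overlap (log2 fold change 14.08 ± 0.85, adjusted p = 3.85e-06, and 15.07 without mouse ko 3). Trmt2b (chrX:134222339-134276984, minus strand), a methyltransferase that acts on mitochondrial tRNA and rRNA, was between 60.4 and 70.7 CPM in iBAT (median 62.4) and between 10.8 and 13.5 CPM in eWAT (median 12.3). Its groups did not overlap (2.39 ± 0.08, adjusted p = 4.15e-07). Me3 (chr7:89632392-89854359, plus strand), the mitochondrial NADP-dependent malic enzyme, was between 63.6 and 78.6 CPM in iBAT (median 72.1) and between 0.860 and 2.11 CPM in eWAT (median 1.49), again without overlap (5.62 ± 0.16, adjusted p = 3.03e-07).

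The 3 markers of the opposite direction were higher in eWAT. Wt1 (chr2:105126529-105173616, plus strand), a zinc finger factor of visceral mesothelium and its derivatives, had no count in any iBAT library and 4.69 to 13.01 CPM in eWAT (median 10.5), lowest in ko 3. Against a floor of 3 counts per library, which is what a count of 0 allows, Wt1 was at least 52.3-fold higher in eWAT, a bound that covers counting error only. Azin2 (chr4:128930233-128962442, minus strand), an inhibitor of the antizymes that tag ornithine decarboxylase for degradation, was between 3.12 and 4.81 CPM in iBAT (median 4.07) and between 25.3 and 38.6 CPM in eWAT (median 32.2) (-3.04 ± 0.13, adjusted p = 8.26e-07). Psat1 (chr19:15904678-15947337, minus strand), which carries out the second step of serine synthesis, was between 4.44 and 8.22 CPM in iBAT (median 4.88) and between 127 and 212 CPM in eWAT (median 145) (-4.83 ± 0.16, adjusted p = 3.81e-07). Its highest value in eWAT was that of ko 3, and without this mouse the difference in Psat1 was -4.71. The groups did not overlap for any of the 6 markers.

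**Figure D2:**
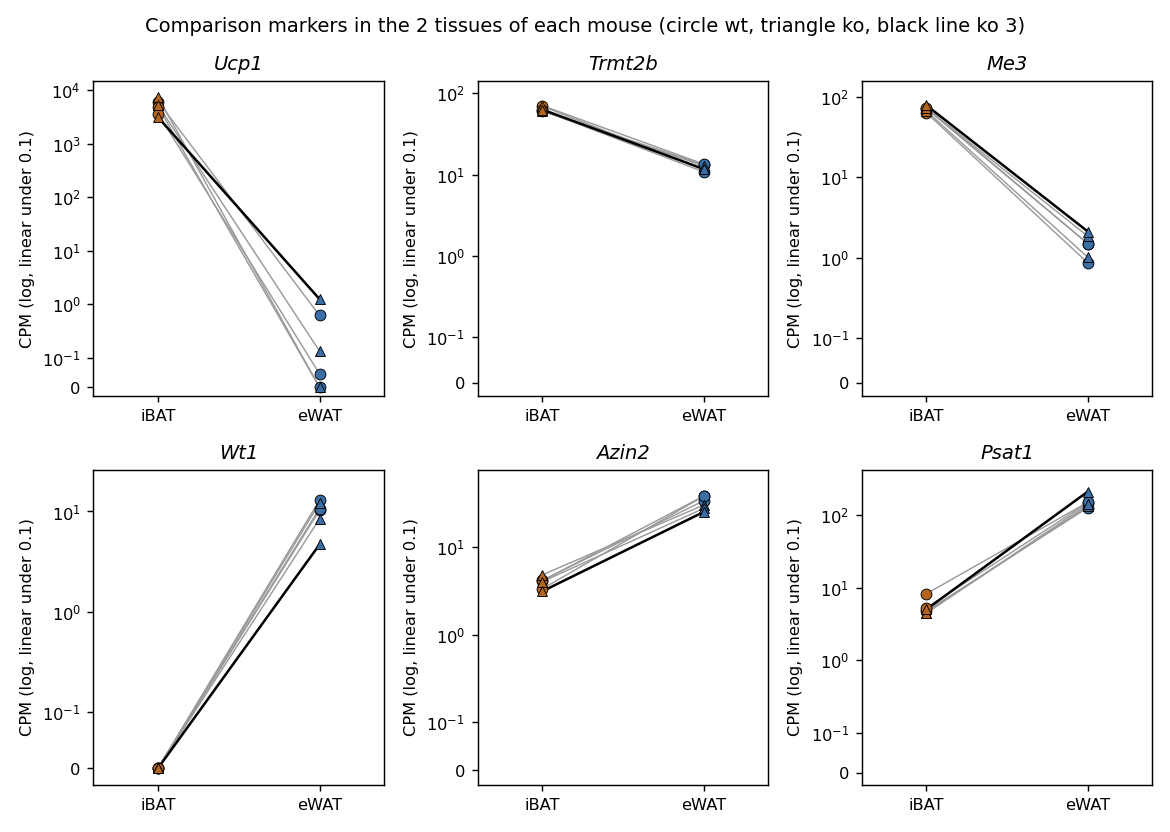
CPM (log axis, linear below 0.1) of the 6 marker genes in iBAT and eWAT; each line joins both tissues of 1 mouse, circles are wt, triangles are ko and the black line is mouse ko 3. Ucp1, Trmt2b and Me3 fall from iBAT to eWAT in all 6 mice, and Wt1, Azin2 and Psat1 climb in all 6.

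The promoter windows printed here belong to genes on which the account turns, namely Ucp1 as the defining gene of brown fat, Dio2 as its thyroid hormone activator, and Sdhb and Uqcr11 as nuclear genes of the respiratory chain. Each window covers 250 bases before to 50 bases after the annotated start and is taken from RefSeq on GRCm38.p6, read 5′ to 3′ on the strand of the gene. Capitals mark matches to any of 5 motifs searched on both strands, namely the CRE (TGACGTCA), the NRF1 core (GCGCATGC), the ETS element (CCGGAAGT), the ERR element (TCAAGGTCA) and DR1, a repeat of AGGTCA spaced by 1 base.
Ucp1, chr8:83290098-83290397, plus strand, no match: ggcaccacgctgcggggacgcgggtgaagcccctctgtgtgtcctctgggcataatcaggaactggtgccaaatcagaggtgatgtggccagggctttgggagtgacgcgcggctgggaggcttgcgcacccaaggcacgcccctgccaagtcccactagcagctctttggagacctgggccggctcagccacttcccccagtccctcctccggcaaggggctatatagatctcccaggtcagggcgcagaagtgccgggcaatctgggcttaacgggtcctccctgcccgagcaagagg
Dio2, chr12:90738989-90739288, minus strand, CRE in capitals: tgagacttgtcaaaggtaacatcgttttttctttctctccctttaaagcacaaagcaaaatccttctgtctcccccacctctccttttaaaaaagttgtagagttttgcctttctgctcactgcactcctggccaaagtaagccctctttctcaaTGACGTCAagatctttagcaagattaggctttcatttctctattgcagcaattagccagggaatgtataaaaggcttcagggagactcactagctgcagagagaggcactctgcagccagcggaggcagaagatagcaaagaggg
Sdhb, chr4:140961021-140961320, plus strand, NRF1 core in capitals: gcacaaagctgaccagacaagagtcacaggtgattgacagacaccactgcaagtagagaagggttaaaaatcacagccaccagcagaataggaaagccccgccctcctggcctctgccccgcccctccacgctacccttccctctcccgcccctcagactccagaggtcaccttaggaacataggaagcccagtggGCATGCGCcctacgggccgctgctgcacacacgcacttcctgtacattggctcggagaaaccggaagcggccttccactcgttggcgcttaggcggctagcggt
Uqcr11, chr10:80406772-80407071, minus strand, ETS element and then NRF1 core in capitals: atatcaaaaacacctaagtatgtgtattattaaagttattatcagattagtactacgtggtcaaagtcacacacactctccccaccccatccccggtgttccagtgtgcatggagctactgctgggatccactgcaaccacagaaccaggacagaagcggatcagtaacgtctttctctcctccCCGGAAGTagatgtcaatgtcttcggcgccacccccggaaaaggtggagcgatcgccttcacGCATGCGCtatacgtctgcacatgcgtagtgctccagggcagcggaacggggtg
The CRE of Dio2 began at -95 from the start, the NRF1 core of Sdhb at -54, and those of Uqcr11 at -66 for the ETS element and -4 for the NRF1 core. Of 32851 windows in the RefSeq table, 1.79% held the CRE, 2.71% the NRF1 core, 3.89% the ETS element, 0.423% the ERR element and 0.0396% DR1. Among the 2034 windows of genes at least 2-fold higher in iBAT the shares were 2.95%, 4.38%, 7.03%, 0.541% and 0.0492%, against 2.70%, 4.46%, 7.03%, 0.290% and 0.0323% of the 15497 windows of all tested genes. Among the 2964 windows of genes at least 2-fold lower they were 1.38%, 1.99%, 2.13%, 0.270% and 0.0337%. A match describes these letters and is not a site of binding, and its absence says only that the letters are not in the window.

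Of the 32 genes listed for brown adipocytes, 31 passed the filter on low counts, 29 of these were higher in iBAT and 2 were lower, with a median log2 fold change of 4.44. For 27 of them the iBAT libraries lay wholly above eWAT. Cidea, a protein of the lipid droplet surface that is abundant in brown fat, was between 2062 and 2846 CPM in iBAT (median 2191) and between 0.644 and 3.21 CPM in eWAT (median 1.77) (10.33 ± 0.35, adjusted p = 4.15e-07). Elovl3, a fatty acid elongase, was between 32.5 and 243 CPM in iBAT (median 112) and between 0 and 0.0902 CPM in eWAT (median 0.0849). No eWAT library came near the lowest iBAT value of either gene. Otop1, a proton channel, was between 249 and 432 CPM in iBAT (median 309.8) and between 0 and 0.505 CPM in eWAT (median 0.190), and Kcnk3, a potassium channel of brown adipocytes, differed by 6.56 ± 0.40. Dio2, whose product turns thyroxine into the active hormone inside the cell, was between 42.6 and 385 CPM in iBAT (median 166) and between 0.0460 and 1.71 CPM in eWAT (median 0.509) (7.99 ± 0.45, adjusted p = 2.96e-06).

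Most listed regulators of the brown programme were higher in iBAT too. Ppargc1a, the coactivator of mitochondrial biogenesis, was between 29.7 and 253 CPM in iBAT (median 47.1) and between 3.63 and 8.75 CPM in eWAT (median 5.66), with 1 iBAT library far above the others (3.49 ± 0.50, adjusted p = 4.53e-04). Its relative Ppargc1b differed by 4.07 and the nuclear receptors Ppara, Esrrb, Esrrg and Esrra by 5.23, 4.15, 3.49 and 2.43. Prdm16, a zinc finger factor that holds brown identity, was between 19.3 and 44.1 CPM in iBAT (median 28.3) and between 4.83 and 8.88 CPM in eWAT (median 6.85). Ebf2, an early factor of brown precursors, differed by only 0.81 ± 0.16, a value that falls below 0 when libraries are scaled by their totals. The members lower in iBAT were Adrb3, the beta-adrenergic receptor of rodent adipocytes, and Zfp516, a cold-inducible activator of Ucp1 (-0.73 ± 0.20). Adrb3 was between 295 and 497 CPM in iBAT (median 399.7) and between 482 and 1260 CPM in eWAT (median 943), and the groups overlapped (-1.14 ± 0.17, adjusted p = 5.49e-04). Fgf21, a hormone of stressed liver and brown fat, was the member that the filter removed.

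The 10 genes with the smallest p-values among those higher in iBAT were Cox7a1, Cpn2, Acss1, Cpt1b, Rnf152, Elovl3, Ldhb, Sirt3, Suclg1 and Xrcc6, and the 10 among those lower were Gsta3, Alcam, Atp6v0e2, Upk3b, C6, Psat1, Niban2, Mst1r, Ccbe1 and Fads3, with adjusted p-values up to 4.37e-07. Sirt3, the main deacetylase of the mitochondrial matrix, was between 88.9 and 102 CPM in iBAT (median 92.4) and between 12.0 and 13.9 CPM in eWAT (median 12.5). Acss1, which activates acetate in mitochondria, was between 284 and 372 CPM in iBAT (median 327) and between 8.41 and 12.6 CPM in eWAT (median 10.1). Xrcc6, which encodes the Ku70 subunit of DNA end joining, was between 174 and 237 CPM in iBAT (median 219.9) and between 11.6 and 16.3 CPM in eWAT (median 14.3). None of these 3 genes had overlapping groups. Gsta3, a glutathione transferase, was between 3.95 and 8.22 CPM in iBAT (median 5.74) and between 103 and 225 CPM in eWAT (median 166). Alcam, a cell adhesion molecule, was between 1.66 and 2.09 CPM in iBAT (median 1.86) and between 35.9 and 56.7 CPM in eWAT (median 48.3). C6, a complement component, was between 0.0572 and 0.354 CPM in iBAT (median 0.155) and between 56.8 and 159 CPM in eWAT (median 80.6), so that iBAT held it at traces only.

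White adipocyte genes went the other way, with 3 of 25 listed and tested members higher in iBAT and 22 lower (median -2.67). In bulk tissue fewer cells of a type and less RNA per cell cannot be told apart. Lep, the gene of the satiety hormone leptin, was between 20.3 and 79.1 CPM in iBAT (median 30.6) and between 184 and 821 CPM in eWAT (median 641) (-3.83 ± 0.35, adjusted p = 3.58e-05). Agt, the precursor of angiotensin, was between 0.510 and 6.50 CPM in iBAT (median 1.85) and between 253 and 524 CPM in eWAT (median 366) (-7.46 ± 0.35, adjusted p = 1.22e-06). Cfd, the adipokine adipsin, was between 559.9 and 3098 CPM in iBAT (median 1413) and between 5133 and 13272 CPM in eWAT (median 8582). None of these groups overlapped. Retn (resistin) differed by -3.98 ± 0.35, and the imprinted genes Nnat and Mest by -5.89 and -6.00. The 3 listed genes that were higher in iBAT were Pygl (3.74), a glycogen phosphorylase, Vldlr (2.52), a lipoprotein receptor, and Rb1 (0.70), the retinoblastoma repressor, the last of which turned below 0 under scaling by library totals. The summed level of the whole list was 4291 to 7100 CPM in iBAT, 14076 to 22601 CPM in the other 5 eWAT libraries and 9427 CPM in eWAT ko 3.

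Adipoq, the gene of adiponectin, was between 663 and 1070 CPM in iBAT (median 851) and between 959 and 2265 CPM in eWAT (median 1947) (-1.02 ± 0.20, adjusted p = 0.00233), and the groups overlapped through ko 3 alone, without which the difference was -1.22. Genes shared by all adipocytes lay on both sides with TMM scaling. Of 16 core adipogenic genes, 4 were higher, 4 were lower and 8 did not pass, with a median of 0.11. Under scaling by library totals 2 were higher and 12 lower (median -0.77), and without mouse ko 3 the counts were 4 and 7 (median -0.09). Pparg, the master regulator, differed by 0.81 ± 0.20, and Cebpa, its partner, by 0.17 ± 0.23 (adjusted p = 0.540). Fabp4, a fatty acid carrier, and Plin1, the droplet coat protein, differed by 0.22 ± 0.19 (adjusted p = 0.340) and -0.15 ± 0.18 (adjusted p = 0.495). The related factors Cebpb and Cebpd pointed apart, at 3.21 and -1.63. Rxra, the partner receptor of Pparg, was at -1.07, Lpl, which releases fatty acids from lipoproteins, at -0.66, and Pnpla2, the lipase ATGL, at 1.55.

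Of 28 tested genes for secreted factors out of 30 listed, 6 were higher in iBAT and 17 were lower (median -1.11). Higher were Nampt (1.75), Angptl8 (2.59), Bmp8b, Nrg4 (1.93), Vegfa (1.80) and Cxcl14 (2.11). Bmp8b, a thermogenic growth factor, was between 0.515 and 2.01 CPM in iBAT (median 1.71) and between 0 and 0.123 CPM in eWAT (median 0). Among those lower were Lcn2 (-3.99), Saa3 (-4.06) and Hp (-1.12), genes of the acute phase. Igfbp2, a carrier of insulin-like growth factors, was between 0 and 0.0596 CPM in iBAT (median 0.0295) and between 1.70 and 7.96 CPM in eWAT (median 5.99), and Igf1 itself differed by -3.15 ± 0.28.

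**Figure D3:**
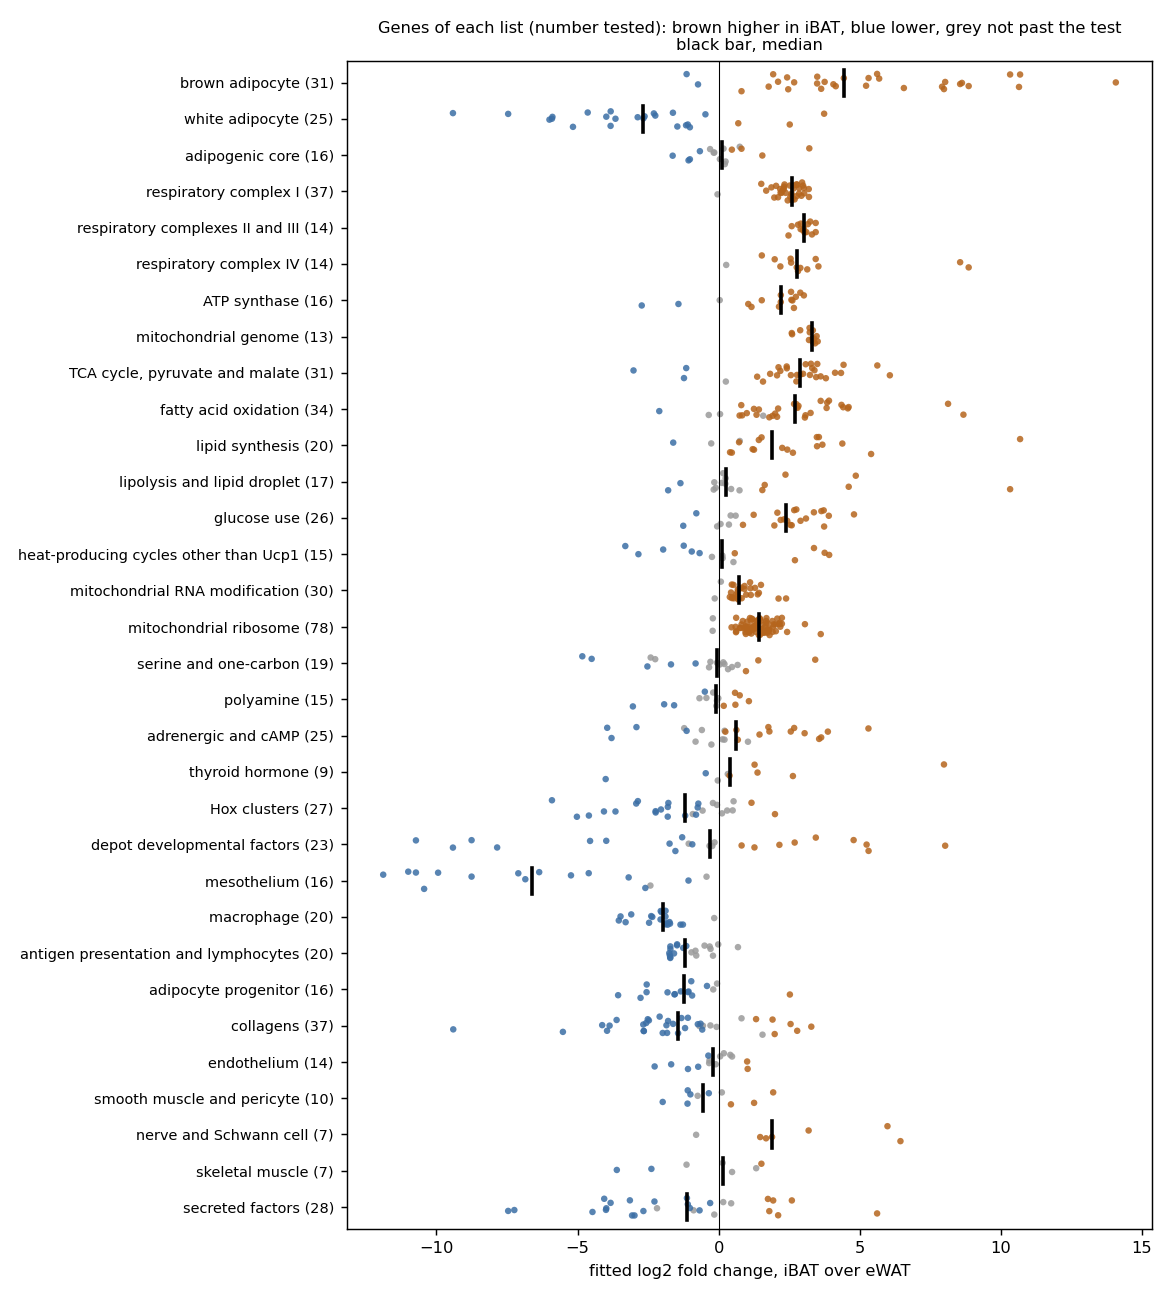
Log2 fold change of iBAT over eWAT (x axis) for the tested members of each gene list (rows); brown points passed as higher in iBAT, blue as lower, grey did not pass, and the black bar is the median. Respiratory, oxidation and brown adipocyte lists sit to the right of 0, mesothelium, macrophage and white adipocyte lists to the left, and the adipogenic core straddles it with a median of 0.11.

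Transcripts of the mitochondrial genome took a far larger share of the counts in brown fat. The 13 mRNAs made from mitochondrial DNA held 23.8% ± 1.10 (SD, n = 6) of all counts in iBAT (21.6% to 24.8%) and 4.58% ± 0.684 (SD, n = 6) in eWAT (3.66% to 5.70%). The difference within a mouse was 19.2 percentage points ± 1.18 (SD, n = 6), from 17.5 to 20.7, with a two-sided exact paired permutation p of 0.03125, the smallest that 6 pairs allow. All 13 genes were called higher, with a median log2 fold change of 3.32, or 2.44 under scaling by library totals. The smallest difference was that of mt-Nd6 (2.59), which encodes a complex I subunit, and the widest that of mt-Atp6 (3.51), which encodes a subunit of ATP synthase. Among these 13, mt-Co1, of cytochrome c oxidase, was between 74423 and 91896 CPM in iBAT (median 83143) and between 6868 and 11231 CPM in eWAT (median 8883). As a share of counts, mt-Co1 held a mean of 6.08% in iBAT and 1.20% in eWAT.

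**Figure D4:**
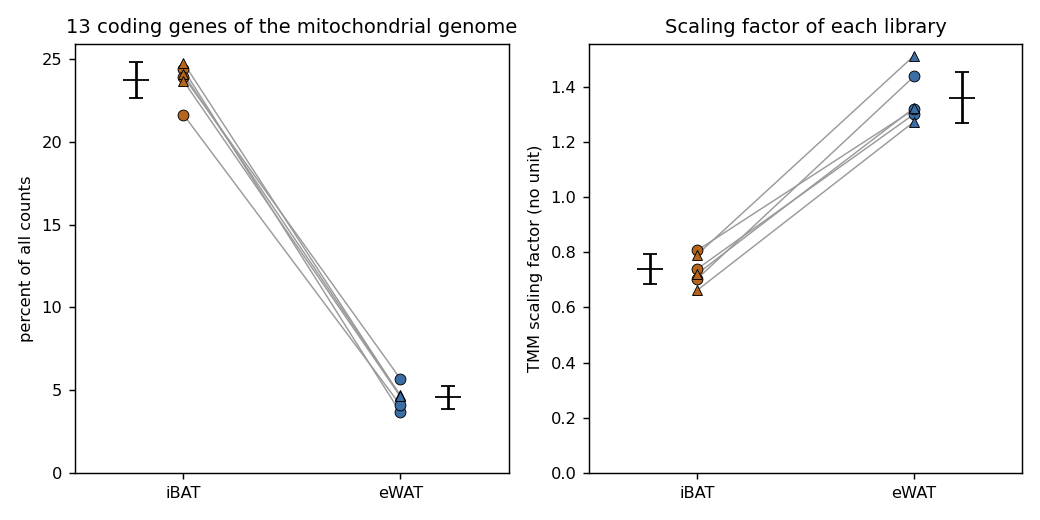
Left, percent of counts from the 13 mRNAs of mitochondrial DNA per library; right, the TMM factor per library (no unit); points are libraries and bars the mean ± SD of 6 libraries per tissue. The iBAT libraries hold 21.6% to 24.8% and the eWAT libraries 3.66% to 5.70%, and the TMM factors separate in the opposite order.

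Most listed nuclear genes of the respiratory chain were higher in iBAT, and the medians of the complexes stayed above 0 when libraries were scaled by their totals. Of 37 listed complex I genes, 36 were higher with no overlap between tissues (median 2.58), and the remaining one, Ndufa4l2, differed by -0.04 ± 0.17. All 14 genes of complexes II and III with their electron carrier cytochrome c were higher (median 3.03). Sdhb, the iron-sulfur subunit of complex II whose promoter window holds an NRF1 core, was between 937 and 1150 CPM in iBAT (median 1041) and between 55.5 and 129.8 CPM in eWAT (median 105). Uqcr11, a small subunit of complex III, was between 547 and 688 CPM in iBAT (median 588) and between 74.5 and 119 CPM in eWAT (median 106). Their differences were 3.44 ± 0.16 and 2.59 ± 0.13, the first being the widest of the group. Of 9 windows found for genes of complexes II and III, 4 held the NRF1 core (Sdhb, Uqcr11, Uqcrc1 and Cycs) and 2 the ETS element (Uqcr11 and Uqcrh), while 2 held the CRE and 1 the ERR element. The shares were 44.4%, 22.2%, 22.2% and 11.1%, against 4.46%, 7.03%, 2.70% and 0.290% of the windows of tested genes. These shares rest on 9 windows only. In the same order of motifs, the 34 windows of complex I gave 8.82%, 2.94%, 8.82% and 0%. The 11 windows of complex IV gave 9.09%, 9.09%, 0% and 0%, and the 18 of ATP synthase 16.7%, 5.56%, 0% and 5.56%.

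Cytochrome c oxidase held the widest differences of the respiratory lists, in isoforms known from heart and muscle. Of 15 listed genes of complex IV, 14 were tested and 13 were higher (median 2.79). Cox7a1, the muscle-type isoform of subunit 7A, was between 378 and 541 CPM in iBAT (median 468) and between 0.598 and 1.48 CPM in eWAT (median 0.946) (8.86 ± 0.16, adjusted p = 8.27e-08). Per kilobase of exon its mean level in iBAT was 858 CPM against 408 for the ubiquitous isoform Cox7a2, while in eWAT the order was turned, at 1.87 and 69.2 CPM per kilobase. The same held for subunit 8: Cox8b was at 2923 and Cox8a at 1857 CPM per kilobase in iBAT, and at 8.58 and 477 in eWAT. Cox4i2, a lung-type isoform, differed by 0.27 ± 0.21 and did not pass, and Cox6a2 was not tested.

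ATP synthase was the complex with members on both sides, with 13 of 16 genes higher and 2 lower. Atp5g1, Atp5g2 and Atp5g3 encode the same mature c subunit of the rotor and differ in the leader peptide. Atp5g1 was between 4.52 and 8.46 CPM in iBAT (median 6.22) and between 34.2 and 82.7 CPM in eWAT (median 36.5) (-2.73 ± 0.21, adjusted p = 1.49e-05), Atp5g2 was higher by 1.16, and Atp5g3 differed by 0.04 ± 0.11. Reads of such near copies may be split unevenly, so these 3 values are less certain. Atpif1, which encodes the inhibitor of the enzyme, was between 6.78 and 10.1 CPM in iBAT (median 7.87) and between 15.3 and 62.1 CPM in eWAT (median 17.8) (-1.42 ± 0.26, adjusted p = 0.00167). The iBAT values of Atp5g1 and Atpif1 lay below all eWAT values, while the catalytic subunits Atp5a1 and Atp5b were higher by 2.89 and 2.74.

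Enzymes that feed the chain were examined next. For the TCA cycle with pyruvate and malate enzymes, 27 of 31 genes were higher and 3 were lower (median 2.89). Pdk4, a kinase that switches off pyruvate dehydrogenase, was between 1094 and 4047 CPM in iBAT (median 1816) and between 14.7 and 66.5 CPM in eWAT (median 25.3) (6.07 ± 0.26). The lower genes were Pdk3 (-3.02), Me2 (-1.23), a NAD-dependent malic enzyme, and Pdp1 (-1.15), a phosphatase that reactivates pyruvate dehydrogenase. Isoforms of 1 step thus lay on both sides, with the malic enzymes Me1, Me2 and Me3 at 1.82, -1.23 and 5.62.

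Fatty acid oxidation gave 30 higher and 1 lower among 34 tested of 36 listed genes (median 2.71). Cpt1b, the muscle isoform of the carnitine transferase that gates entry of fatty acids into mitochondria, was between 875 and 1439 CPM in iBAT (median 1132) and between 3.36 and 4.75 CPM in eWAT (median 4.03) (8.13 ± 0.17, adjusted p = 1.14e-07). Cpt1a, the liver isoform, was the member lower in iBAT, at between 12.6 and 18.7 CPM in iBAT (median 14.8) and between 47.1 and 79.9 CPM in eWAT (median 67.4) (-2.10 ± 0.13). Per kilobase, Cpt1b stood at 337 and Cpt1a at 1.96 CPM in iBAT, against 1.19 and 8.51 in eWAT. Acot11, a thioesterase also known as brown fat inducible thioesterase, differed by 8.67 ± 0.40, and the trifunctional enzyme genes Hadha and Hadhb by 3.91 and 4.58. The peroxisomal genes Acaa1a and Acaa1b differed by 0.74 and 0.80, which are below 0 under scaling by library totals. Acaa1a and Acaa1b, like the clustered Acot1 to Acot4 genes, are near copies whose counts are uncertain.

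Brown fat also held more transcript of fatty acid synthesis. Of 20 genes, 17 were higher and 1 was lower (median 1.89). Fasn, fatty acid synthase, and Acly, which supplies its acetyl-CoA, differed by 3.48 ± 0.32 and 3.68 ± 0.17. Scd1, the stearoyl-CoA desaturase, was between 33707 and 59231 CPM in iBAT (median 41431) and between 7979 and 21861 CPM in eWAT (median 17785), and was thus abundant in both tissues. The elongase Elovl6 and glycerol phosphate dehydrogenase Gpd1 were higher by 5.40 and 4.38. Mogat1, a monoacylglycerol acyltransferase, was the one lower gene at -1.61 ± 0.21.

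Genes of lipolysis and the droplet lay on both sides. Of 17 tested, 6 were higher, 2 were lower and 9 did not pass (median 0.25), and under scaling by library totals 6 were higher and 10 lower (median -0.64). The CIDE family, which drives fusion of droplets, split: Cidea was far higher in iBAT, while Cidec was between 850.4 and 1069 CPM in iBAT (median 994) and between 1477 and 3229 CPM in eWAT (median 2890) (-1.35 ± 0.19). The perilipins split too, with Plin5 (4.86), which tethers droplets to mitochondria, Plin2 (2.37) and Plin3 (1.63) higher and Plin4 (-1.79) lower. Lipe and Mgll, the lipases that follow ATGL, differed by 0.25 ± 0.17 and -0.10 ± 0.13 and did not pass.

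Glucose use had 19 of 26 genes higher and 2 lower (median 2.37). Slc2a4, the insulin-responsive transporter GLUT4, was between 574 and 895 CPM in iBAT (median 856) and between 66.8 and 197 CPM in eWAT (median 159.9) (2.43 ± 0.16). Slc2a1, the basal transporter GLUT1, was between 8.64 and 14.7 CPM in iBAT (median 12.0) and between 13.05 and 34.3 CPM in eWAT (median 20.5) (-0.79 ± 0.18). Among the glycolytic enzymes Eno1, Pfkl and Pkm were higher by 3.90, 3.64 and 3.38. The glycogen phosphorylases lay apart, with Pygl at 3.74, Pygb at -1.25 and Pygm at 0.07 ± 0.29, which did not pass.

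Heat-producing cycles that do not use Ucp1 had 5 genes higher and 6 lower among 15 tested of 19 listed (median 0.13, and -0.74 under scaling by library totals). In the creatine cycle, Ckb, the cytosolic creatine kinase, was between 27.2 and 43.2 CPM in iBAT (median 33.2) and between 33.6 and 148 CPM in eWAT (median 62.6) (-0.95 ± 0.18), Gamt, which makes creatine, differed by -1.97, and Alpl, a phosphatase that can split phosphocreatine, by 2.70. The calcium pump Atp2a2 differed by 0.57 ± 0.15 and the release channel Ryr1 by -2.84 ± 0.45. Gk, glycerol kinase, was at 73.7 to 348 CPM in iBAT, at 5.41 to 39.95 CPM in 5 eWAT libraries and at 180.3 CPM in eWAT ko 3, so that the groups overlapped (3.76 ± 0.95, adjusted p = 0.00943, and 4.39 without mouse ko 3). The other uncoupling proteins went separate ways. Ucp2 was lower in iBAT (-1.24) and Ucp3 higher (3.92), and per kilobase Ucp1, Ucp2 and Ucp3 stood at 3111, 8.16 and 46.5 CPM in iBAT and at 0.207, 19.3 and 3.47 in eWAT.

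Enzymes that modify and mature mitochondrial RNA were a group to which Trmt2b belongs. Of 30 genes, 28 were higher in iBAT and none was lower with TMM scaling (median 0.73), whereas scaling by library totals left 7 higher and 9 lower with a median of -0.16. Only 9 of them differed by 2-fold or more. Trmt2b had the widest difference of the group at 2.39, followed by Mto1, which modifies the wobble base of mitochondrial tRNAs, at 2.12 ± 0.12. Mrm1, an rRNA methyltransferase, and Nsun4, a further rRNA methyltransferase, were at 1.5 and 1.43. Cdk5rap1, which adds a methylthio group to mitochondrial tRNAs, was between 12.4 and 32.0 CPM in iBAT (median 19.98) and between 8.48 and 17.2 CPM in eWAT (median 12.3) (0.74 ± 0.10). Nsun2 and Alkbh1 did not pass, at 0.08 ± 0.08 and -0.14 ± 0.15. The ETS element was found in 7 of 31 windows of this list (22.6%), against 7.03% of the windows of tested genes. The NRF1 core was in 3.23%, the CRE in 9.68% and the ERR element in 0%, against 4.46%, 2.70% and 0.290%.

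Of 78 genes of the mitochondrial ribosome, which translates the products of the mitochondrial genome, 76 were higher without overlap and none was lower with TMM scaling (median 1.43), while 57 were higher and 7 lower under scaling by library totals (median 0.54). Mrps36, now counted with the oxoglutarate dehydrogenase complex, had the widest difference at 3.62 ± 0.12, followed by Mrpl34 at 3.06 ± 0.11. Mrpl23 and Mrps6 did not pass, at -0.21 ± 0.29 and -0.21 ± 0.13. Of the list's 75 windows, 16% held the ETS element and 10.7% the NRF1 core, against 7.03% and 4.46% of the windows of tested genes. The CRE was in 2.67% and the ERR element in 0%, against 2.70% and 0.290%.

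The first steps of serine synthesis were lower in brown fat. Phgdh, the first enzyme, was between 8.09 and 19.2 CPM in iBAT (median 9.59) and between 199.9 and 312 CPM in eWAT (median 238) (-4.50 ± 0.24, adjusted p = 1.93e-06). Psat1 follows Phgdh at -4.83, and Psph, the last step, was higher in iBAT at 0.97 ± 0.24. Psph was at 34.8 to 42.9 CPM in iBAT, at most 18.6 CPM in 5 eWAT libraries and at 49.7 CPM in eWAT ko 3, and its difference without mouse ko 3 was 1.23. Shmt1, the cytosolic enzyme that passes the carbon of serine to folate, was higher by 3.42 ± 0.16. Shmt2, its mitochondrial form, reached 142 CPM in eWAT ko 3 and at most 17.5 CPM in the other eWAT libraries (0.21 ± 0.44, and 0.66 without mouse ko 3). Over the list of 19 genes 3 were higher and 5 lower, and without mouse ko 3 the counts were 7 and 7. Scaling by library totals gave 2 higher and 12 lower, with a median of -0.94 against -0.06.

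Polyamine genes other than Azin2 showed smaller differences. Of 15 tested of 17 listed, 5 were higher and 4 were lower (median -0.08), and under scaling by library totals 1 was higher and 11 were lower. Odc1, the ornithine decarboxylase on which Azin2 acts through the antizymes, differed by -0.19 ± 0.16 (adjusted p = 0.323). Oaz1, the main antizyme, was higher by 1.07 ± 0.09. Azin1, the paralog of Azin2, was at 0.59 ± 0.09 with TMM scaling. The amine oxidase Aoc3, an adipocyte surface enzyme, differed by -1.58 ± 0.20.

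Receptors, cyclases and phosphodiesterases of the adrenergic pathway lay on both sides. Of 25 genes, 13 were higher and 4 were lower with a median of 0.63, against 9 higher, 12 lower and a median of -0.25 under scaling by library totals. Among the receptors, Adrb1 (2.68) and Adra1a (3.56) were higher and Adrb3 (-1.14), Adra1b (-3.80) and the inhibitory Adra2a (-3.95) were lower. Adra2a was between 0.0589 and 0.292 CPM in iBAT (median 0.176) and between 1.51 and 4.07 CPM in eWAT (median 2.67). Gnas, the stimulatory G protein, was higher by 2.56 ± 0.11. Of the cyclases that make cAMP, Adcy3 (3.63) and Adcy10 (3.87) were higher and Adcy5 (-2.91) was lower. Pde4d, which degrades cAMP, was between 60.2 and 129 CPM in iBAT (median 79.9) and between 1.06 and 3.60 CPM in eWAT (median 1.99) (5.31 ± 0.23).

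Of 9 tested thyroid hormone genes out of 11 listed, 5 were higher and 2 lower (median 0.39, and -0.50 with 2 higher and 5 lower under scaling by library totals). Beside Dio2, the receptor Thrb differed by 1.38 ± 0.23 and the responsive gene Thrsp by 2.63 ± 0.28. Dio3, which inactivates the hormone, was between 0 and 0.219 CPM in iBAT (median 0.0642) and between 0.893 and 1.56 CPM in eWAT (median 1.31). The activating and inactivating deiodinases therefore lay on opposite sides.

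Hox genes encode factors that set position along the body axis. Of 39 Hox genes 27 were tested, 2 were higher in iBAT and 17 were lower (median -1.19). The summed level of the list in eWAT was 873.6 CPM in ko 3 and 352.9 to 484.4 CPM in the other libraries, and without mouse ko 3 2 genes were higher and 18 lower (median -1.25). Hoxc8 was between 4.18 and 17.6 CPM in iBAT (median 9.26) and between 64.0 and 165 CPM in eWAT (median 129) (-3.66 ± 0.23), and its neighbour Hoxc9 differed by -5.91 ± 0.55. The posterior genes Hoxa10 and Hoxd10 differed by -5.02 and -4.06. Those higher in iBAT were Hoxa4 (1.996) and Hoxa5 (1.16), which lie nearer the anterior end of their cluster.

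Other developmental factors divided the depots, with 9 higher and 10 lower among 23 tested of 30 listed. Zic1 (5.31), a factor of dorsal mesoderm, Tbx5 (5.24), Tbx15 (4.78) and En1 (3.44) were higher in iBAT. Lhx8 was between 0.875 and 5.30 CPM in iBAT (median 3.02) and between 0 and 0.0451 CPM in eWAT (median 0). Tcf21 and Bnc1, factors of visceral mesenchyme and mesothelium, had no count in iBAT and were at 2.77 to 5.94 and 0.781 to 4.75 CPM in eWAT, at least 20.9-fold and 13.6-fold higher against the floor of 3 counts per library. Emx2, a urogenital factor, was at 139.9 CPM in eWAT ko 3 and at most 7.82 CPM in the other eWAT libraries (-7.85 ± 1.10, and -4.79 without mouse ko 3).

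Mesothelial genes set the epididymal depot apart. None of 16 was higher in iBAT and 14 were lower without overlap (median -6.61, or -5.34 with the 3 genes that had no count in iBAT set at their bounds). Upk3b, a uroplakin of the mesothelial surface, was between 0 and 0.0596 CPM in iBAT (median 0) and between 12.2 and 56.0 CPM in eWAT (median 32.6). Msln, mesothelin, differed by -6.36 ± 0.72. Krt8, a keratin of simple epithelia that epididymal epithelium also makes, was at 299.8 CPM in eWAT ko 3 against at most 63.1 CPM in the other eWAT libraries (fitted difference -11.89, and -9.58 without mouse ko 3, with at most 1 count in any iBAT library). The summed level of the list was 24.1 to 46.7 CPM in iBAT, 220.1 to 313.4 CPM in 5 eWAT libraries and 853.0 CPM in eWAT ko 3. Lrrn4 and Cdh1 did not pass, at -0.43 ± 0.30 and -2.42 ± 2.48.

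Macrophage genes were lower in brown fat as well, 19 of 20 (median -1.95). Adgre1, the gene of F4/80, was between 1.89 and 8.03 CPM in iBAT (median 3.71) and between 7.58 and 21.01 CPM in eWAT (median 17.9), and the overlap came from eWAT ko 3, the lowest eWAT library (-2.02 ± 0.37, and -2.30 without mouse ko 3). Itgam and Trem2, of recruited and lipid-handling macrophages, differed by -3.54 and -3.48. Cx3cr1, a chemokine receptor, did not pass (-0.16 ± 0.32). Of 20 genes for antigen presentation and lymphocytes, 11 were lower and none higher. All eWAT libraries lay above all iBAT libraries for 2 of them and for 8 of the 20 macrophage genes, against 19.4% of genes tested. The class II genes were among the lower ones, with H2-Ab1 at -1.75 ± 0.35. The T cell genes Cd3e, Cd3d, Cd3g, Cd4, Cd8a and Trac did not pass, and Cd3e differed by -0.32 ± 0.48.

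Of 16 progenitor genes 13 were lower, among them Dpp4 (-3.56) and Pdgfra (-1.34), and Dlk1, an inhibitor of adipogenesis, was the one higher (2.52 ± 0.37). Of 37 tested collagen genes out of 44 listed, 6 were higher and 25 lower (median -1.44), against 3 and 28 under scaling by library totals. Col6a5 was between 0 and 0.354 CPM in iBAT (median 0.0663) and between 45.3 and 182 CPM in eWAT (median 84.6), and Col27a1, a fibrillar collagen, went the other way at 3.28 ± 0.39. Of 14 endothelial genes 2 were higher and 5 lower (median -0.21), against 0 higher and 11 lower under scaling by library totals (median -1.10). The pan-endothelial genes Pecam1 (-0.33 ± 0.14) and Cdh5 (-0.10 ± 0.17) did not pass, the receptor genes Kdr and Flt1 were higher by 1.03 and 1.01 with TMM scaling, and Plvap (-2.27) and Vwf (-1.68) were lower. Of 10 smooth muscle and pericyte genes 3 were higher and 5 lower, with Cspg4 (1.93) and Mylk (-1.98) at the ends, and scaling by library totals gave 1 and 7.

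Nerve and Schwann cell genes were higher in iBAT, 6 of 7 tested of 10 listed (median 1.89). S100b, a calcium-binding protein of glia that brown adipocytes also release, was between 46.6 and 108 CPM in iBAT (median 68.9) and between 0.276 and 1.41 CPM in eWAT (median 0.900). Sox10, a Schwann cell factor, differed by 3.19 ± 0.48. Th, the enzyme that marks sympathetic neurons, was not tested, as it had no count in iBAT and at most 2 counts in any eWAT library. Of 15 skeletal muscle genes 7 were tested, 1 was higher and 2 were lower, with a median of 0.14 that turned to -0.74 under scaling by library totals. Acta1 was between 0.0589 and 3.04 CPM in iBAT (median 0.196) and between 1.84 and 12.0 CPM in eWAT (median 6.80) (-3.61 ± 0.61), and the sum over the list was 60.5 to 85.4 CPM in iBAT and 14.5 to 45.8 CPM in eWAT.

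The library eWAT ko 3 carried genes of the neighbouring organs. Crisp1, a secreted protein of the epididymis, was at 2773 CPM there and at most 3.64 CPM in the other eWAT libraries. Spink8, an epididymal protease inhibitor, was at 1406 CPM against at most 4.34 CPM. Adam7, an epididymal membrane protein, was at 295 CPM in ko 3 and at 7.16, 0, 0.587, 0 and 0 CPM in wt 1, wt 2, wt 3, ko 1 and ko 2, and at 0 in all iBAT libraries. The library eWAT wt 1 thus held a trace of it as well. Prm2, a protamine of sperm chromatin, was at 34.8 CPM in ko 3 and at most 2.55 CPM elsewhere in eWAT. The sum of the 13 epididymal genes was 4917 CPM in eWAT ko 3, at most 35.3 CPM in the other eWAT libraries and at most 1.87 CPM in iBAT. Of the 13 epididymal genes 2 were tested and 1 was lower in iBAT (median -6.36), and without mouse ko 3 1 was higher and 1 lower (median -2.81). Of the 12 testis genes 4 were tested, 1 was higher and 3 were lower (median -8.39), and without mouse ko 3 the counts were 1 and 3 (median -5.88). The higher one, Hspa1l, lost its call in 11 of the alternatives and reversed in 1. The calls on Adam7, Prm1, Prm2 and Tnp2 were not made by DESeq2. Adam7 and the 3 lower testis genes had no count in iBAT. They passed the filter through eWAT alone and could only be lower in iBAT. With such genes set at their bounds, the medians over all mice were -3.83 for the epididymal and -3.46 for the testis list. In the same library the macrophage sum was 270.6 CPM against 646.5 to 874.6 CPM in the other eWAT libraries. The endothelial sum was 939.9 CPM against 1685 to 2006 CPM. The part of these transcripts in any single difference was not tested.

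Several lists were read again without mouse ko 3. The brown adipocyte list then had 29 higher and 2 lower with a median of 4.54, and the white adipocyte list 3 and 22 with a median of -2.91. For mesothelium, 15 genes were lower with a median of -6.49, and for macrophages 19 with a median of -2.24. The endothelial list changed from 5 to 8 lower genes and the progenitor list from 13 to 14. Of the nerve and Schwann cell genes 6 were higher and 0 lower, with a median of 1.76.

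**Figure D5:**
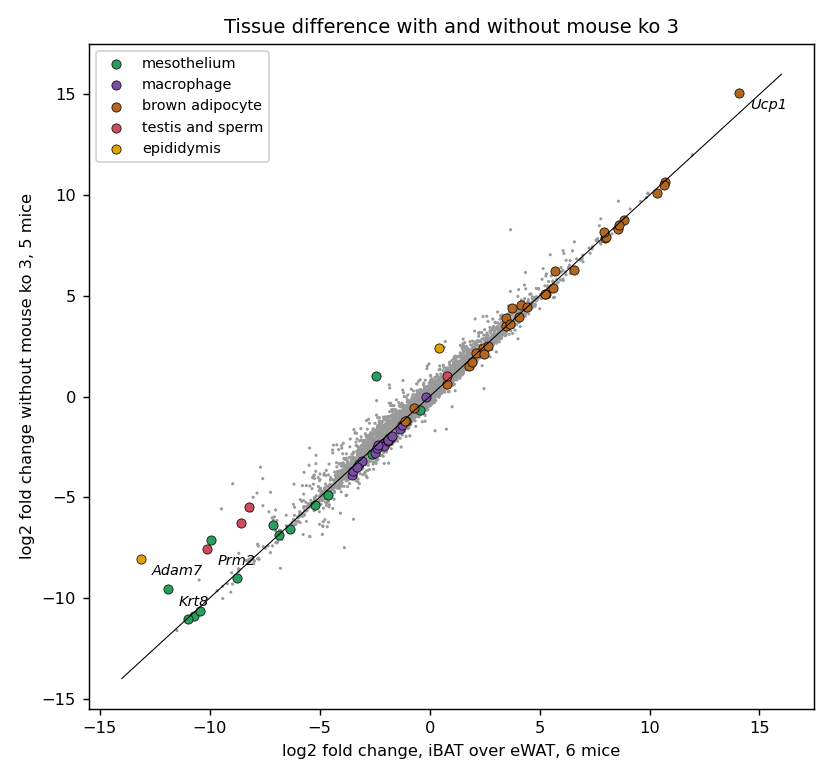
Log2 fold change of iBAT over eWAT from all 6 mice (x axis) against the same from the 5 mice without ko 3 (y axis) for tested genes, with 5 gene lists in colour and the diagonal marking equal values. Brown adipocyte and macrophage genes lie near the diagonal, and epididymis and testis genes leave it, with Adam7, which has no count in iBAT and so no firm fold change, at -13.12 and -8.04.

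The distance between the tissues was then compared between the genotypes. No gene of 17508 (0.0%) passed the test of the interaction of tissue and genotype in edgeR, with 243 genes at an unadjusted p below 0.05 and a smallest adjusted p of 1, while DESeq2 called 2 genes (Plk3 and Sik1) and limma-voom called 1 (Gm20431). Such a count does not show that the tissues differ alike in both genotypes. Trmt2b had an interaction of 0.05 and Ucp1 of -0.76 on the log2 scale, ko minus wt. Fitted within a genotype, 8199 genes differed between the tissues in the 3 wt mice (4091 higher, 4108 lower) and 4740 in the 3 ko mice (2553 higher, 2187 lower), the latter including mouse ko 3.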

How the data were processed

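Polyadenylated RNA of iBAT and eWAT from 6 mice was sequenced as paired-end libraries with a kit that does not mark strand. Per the submitters' processing notes and the study's methods, reads were converted with bcl2fastq, trimmed with cutadapt and quantified with Salmon against GENCODE M22 (GRCm38), in part combined with RNAcentral 5. The authors deposited estimated counts per gene as whole numbers, unscaled and not pooled. Tool versions, strand options and how transcripts were summed per gene are not given in the sources used here, so overlapping, antisense and near-identical genes are uncertain. The authors used DESeq2 for their own comparisons, which were not used here.

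All 18 sample columns were identified by name and 12 were analysed. Of 54347 rows, 31873 carried a symbol and 22273 were named from GENCODE M21, which also gave positions on GRCm38. Filtering on low counts (filterByExpr, by group) kept 17508 genes. For these, edgeR 4.0.16 in R 4.3.3 was used with TMM factors, the quasi-likelihood F-test and terms for mouse and tissue. Benjamini-Hochberg adjustment ran over all tested genes at 0.05. The SE was taken as the log2 fold change over the root of F. Levels per kilobase divide CPM by exon length. The mitochondrial share was compared with a two-sided exact paired permutation test. Pairing rests on the mouse identifiers; deviations of the paired libraries from their group means correlated by 0.026 to 0.154, and for 5 of 6 mice the other tissue of the same mouse matched best among the mice of its genotype. The scripts were tested on simulated data. Alternatives were scaling, filter, block, DESeq2 1.42.0, limma 3.58.1 with voom, robust dispersions, either genotype alone and each mouse left out, and a test against a log2 fold change of 1 (glmTreat) was chosen after seeing the data. Figures were drawn with matplotlib 3.10.9.

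Members and the 35 gene lists were chosen with earlier results of these data known. Genes were named as the 6 markers, Gm15551 and Camk2d, the 10 of smallest p per direction, and up to 4 members per list with the widest called difference and a mean of at least 1 CPM in either tissue; other members appear for their role. Floors of 3 counts, 0.066 to 0.219 CPM per library, cover counting error only, since PCR reads are not independent molecules. Results for a few single genes are not reported here.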

Additional observations from a re-analysis of the deposited data

Results flagged for a closer look

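Within the 6 libraries of a tissue, 81 comparisons were screened with Dixon's criterion for a library far from the rest, and 11 were marked, where chance at 1 in 20 would mark about 4.05. All values are levels and not differences.

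The library eWAT ko 3 accounted for 8 of them. It was the highest eWAT library for the sum over the Hox genes (873.6 CPM, next 484.4), mesothelium (853.0 CPM, next 313.4), nerve and Schwann cell genes (144.7 CPM, next 44.5), epididymal genes (4917 CPM, next 35.3) and testis and sperm genes (126.9 CPM, next 9.01), and for Psat1 (211.9 CPM, next 151.2). It was the lowest for the progenitor sum (908.3 CPM, next 1267) and the endothelial sum (939.9 CPM, next 1685). These sums stood apart in the same library, and which transcripts came from which tissue was not tested. Counts or values without this mouse stand with each of these lists and with Psat1 in the account of the results.

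The library iBAT wt 3 stood apart with the lowest mitochondrial share of the 6 iBAT libraries (21.6%, next 23.7%) and with the highest Psat1 (8.22 CPM, next 5.24). The library eWAT wt 1 had the lowest sum over serine and one-carbon genes (2426 CPM, next 2954).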

How the results depend on the processing

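The number of calls stayed within 1.5 times in each direction under all alternatives except 3. With scaling by library totals only, 1663 genes were higher and 12575 lower. In knockout mice only, 4740 genes were called, 2553 higher and 2187 lower. With glmTreat against a log2 fold change of 1, a stricter test by construction and chosen after seeing the data, 3499 were called, 1548 higher and 1951 lower. Leaving out 1 mouse at a time gave 9124 to 10918 calls, 4341 to 5109 higher and 4734 to 5809 lower, the top of each range being without mouse ko 3. Without the replicate block that pairs tissues by mouse 10259 genes were called, and the unpaired exact permutation p of the mitochondrial share was 0.00216; of 141 named genes only Cldn5, Cideb and Hspa1l lost their call. The mitochondrial difference was 18.9 to 19.5 percentage points without any 1 mouse, where the exact p of 0.0625 is the smallest 5 pairs allow. The interaction gave 2 genes without a filter, 2 with DESeq2 and 1 with voom, against 0.

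Of the 141 genes named by the rule on size or p-value, Sms (-0.14) and Hspa1l (-0.10) reversed, both under scaling by library totals; other genes in the text with a positive difference under about 0.88 turn too. Calls lost per alternative were 9 in knockout mice only, 12 with glmTreat, 4 with DESeq2 and 3 or fewer in each of the rest. The cause was not tested. With at least 10 counts demanded in every library, 97 calls stayed and 1 was lost. The remaining named genes, Ucp1 and Wt1 among them, were not tested there. Depth limits genes near the floor, such as Th, which was not tested. Of 13 epididymal genes, 2 were tested with all mice and 3 to 7 without 1 of the mice wt 1, wt 2, wt 3, ko 1 and ko 2; the cause was not tested.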
